A study of Mus musculus with 8 samples.

Results

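Fibronectin (Fn1) and 9 integrin subunit genes (Itga1, Itga5, Itga6, Itga7, Itga8, Itga11, Itgav, Itgb1 and Itgb5) were followed across the conversion of 3T3-L1 cells into fat cells. They were the rows of the deposited gene table that carried these 10 symbols, 10 of 22798 rows, 1 for each symbol. They were picked by symbol, with earlier results of these data known. All 10 were tested, since they passed the filter on low values. That filter asked for 10 pseudo-counts on average across the 8 libraries and left 14647 genes in all. 3T3-L1 is an established mouse line of fibroblast-like preadipocytes, given in the labels as Swiss albino, and every culture was kept in medium with 10% serum. RNA was taken at 4 stages with 2 libraries each: exponential growth (proliferation), 48 hours at confluence (quiescence), 10 hours after the adipogenic cocktail was added (clonal expansion), and 6 days after it (differentiation). Per the labels, the cocktail held insulin at 5 µg/µl (the unit as the labels print it, which could not be checked), dexamethasone at 1 µM and isobutylmethylxanthine at 0.25 mM and was given for 48 hours, so cells at clonal expansion were still in it, whereas those at differentiation had since been kept on insulin. The stages are therefore times in 1 line under different media, and time, density and the added agents cannot be told apart. The labels number the libraries as experiments 1 and 2 without saying whether they were separate cultures, so a p-value here measures no more than the difference between 2 libraries of a stage, and that may be purely technical.

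Integrins are receptors of the cell surface made of 1 alpha and 1 beta subunit, which bind matrix outside the cell and the actin cytoskeleton, through talin, kindlin and focal adhesion proteins, inside it. The alpha subunit sets most of the ligand choice: Itga5 with Itgb1 is the main fibronectin receptor, Itgav with Itgb1 or Itgb5 and Itga8 with Itgb1 bind the RGD peptide of fibronectin, vitronectin and related proteins, Itga1 and Itga11 with Itgb1 bind collagens, and Itga6 and Itga7 with Itgb1 bind laminins. Fibronectin is secreted as a dimer that integrins pull into fibrils. Preadipocytes lie in a matrix rich in fibronectin and fibrillar collagen, mature fat cells are wrapped in a laminin-containing basement membrane, and fibronectin coatings are known to hold back fat cell formation in culture.

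The values are pseudo-counts, read counts per gene that the authors scaled between libraries. The scaling did not make the totals equal, and the libraries summed to 122413485 to 151529060 pseudo-counts. The 2 libraries of a stage were correlated across genes at r = 0.993 to 0.996 on the log2 scale. At quiescence library 2 stood above library 1 for long genes (median log2 difference 0.255 in the longest length quintile) and below it for short genes (-0.265 in the shortest quintile), and 8 of the 10 genes lie in the 2 longest quintiles. These differences had the same signs but were smaller at clonal expansion (0.0885 and -0.122) and differentiation (0.0318 and -0.0292). At proliferation they were -0.00867 and -0.0134. Fat cell markers were highest at differentiation. The 9 of them summed to 10892440.0 to 11221393 pseudo-counts there, against 93940.1 to 273225 in the 6 earlier libraries. The 9 preadipocyte and fibroblast markers were present at every stage. They summed to 1225935 to 1403706 at differentiation and 2878218 to 5810902 in the earlier libraries. Markers of growth and arrest were not read here. Since a bulk library averages its cells, fewer cells of a type and less RNA per cell cannot be told apart in any value below. A fold change is the difference between stage means of log2(pseudo-count + 1) with its standard error, tested with limma over all genes, and a gene is said to rise or fall where its adjusted p is under 0.05.

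The sequence upstream of the start site is printed for 3 genes, because they made the largest moves among the genes in the promoter table when the cocktail was added: Itga5 rose while Itga11 and Itgb5 fell by like amounts. RefSeq's promoter table (build GRCm38.p6) held 7 of the 10 genes; Fn1, Itga6 and Itga7 were not matched. Each line gives the 250 bases before the start site, in the direction of transcription: Itga5 at chr15:103366792-103367041 on the minus strand, Itga11 at chr9:62677605-62677854 and Itgb5 at chr16:33829415-33829664 on the plus strand. Capitals mark GGGCGG, the GC box, on either strand (CCGCCC where it lies on the opposite one).
Itga5: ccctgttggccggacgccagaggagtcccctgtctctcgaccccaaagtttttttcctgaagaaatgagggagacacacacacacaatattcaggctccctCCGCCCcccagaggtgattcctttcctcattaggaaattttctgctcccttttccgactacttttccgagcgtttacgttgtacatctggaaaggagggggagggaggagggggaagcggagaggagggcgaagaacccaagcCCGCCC
Itga11: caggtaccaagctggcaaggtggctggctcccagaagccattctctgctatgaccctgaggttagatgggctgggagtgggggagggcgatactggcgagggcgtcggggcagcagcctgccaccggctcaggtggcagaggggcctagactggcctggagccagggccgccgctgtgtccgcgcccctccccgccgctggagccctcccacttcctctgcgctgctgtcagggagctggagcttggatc
Itgb5: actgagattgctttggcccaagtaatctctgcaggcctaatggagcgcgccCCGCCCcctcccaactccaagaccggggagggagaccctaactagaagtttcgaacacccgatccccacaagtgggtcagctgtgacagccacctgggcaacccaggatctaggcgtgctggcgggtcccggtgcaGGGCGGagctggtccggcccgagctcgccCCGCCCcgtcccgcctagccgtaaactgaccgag

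In all, 6 motifs were searched on both strands: GGGCGG, found in 32.7% of 32851 promoters, the cyclic AMP element TGACGTCA (1.55%) and its core TGACG (17.8%), which the full element contains, the AP-1 site TGANTCA (6.75%), TATAAA (12.4%) and CCAAT (33.8%). Itga5 held GGGCGG at -149 to -144 and at -6 to -1 relative to the start site. Itgb5 held it at -199 to -194, -63 to -58 and -34 to -29, and Itgb1 at -151 to -146, together with TGACG at -21 to -17. These letters were not in the windows of Itga11, Itga1, Itga8 and Itgav, and each match is a description of sequence, not a site shown to be bound.

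Fn1, which encodes fibronectin (gene ID 14268, chr1:71632097-71699745, in the file's mm9 coordinates, as for the genes below), was among the most abundant transcripts of the cells and stepped down at confluence and again by differentiation. It had 744649 and 736543 pseudo-counts at proliferation, 505741 and 469971 in quiescence, 502509 and 494109 in clonal expansion, and 242983 and 192651 at differentiation. The libraries of quiescence and clonal expansion overlapped, all 4 lay below both of proliferation, and both of differentiation lay below the rest. Before any correction for length, it ranked 5 and 5 among all genes at proliferation, 13 and 12 in quiescence, 18 and 19 in clonal expansion, and 41 and 58 at differentiation. Its log2 change at quiescence against proliferation was -0.60 ± 0.15 (limma adjusted p = 0.0168), a call lost without proliferation library 1 (adjusted p = 0.0616), proliferation library 2 (0.100) or quiescence library 2 (0.0522). It fell at differentiation, with log2 changes of -1.17 ± 0.15 against quiescence and -1.20 ± 0.15 against clonal expansion (adjusted p = 6.28e-05 and 4.15e-05). Clonal expansion against quiescence gave 0.03 (95% interval -0.30 to 0.37), a value whose sign turned under other scalings.

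**Figure D1:**
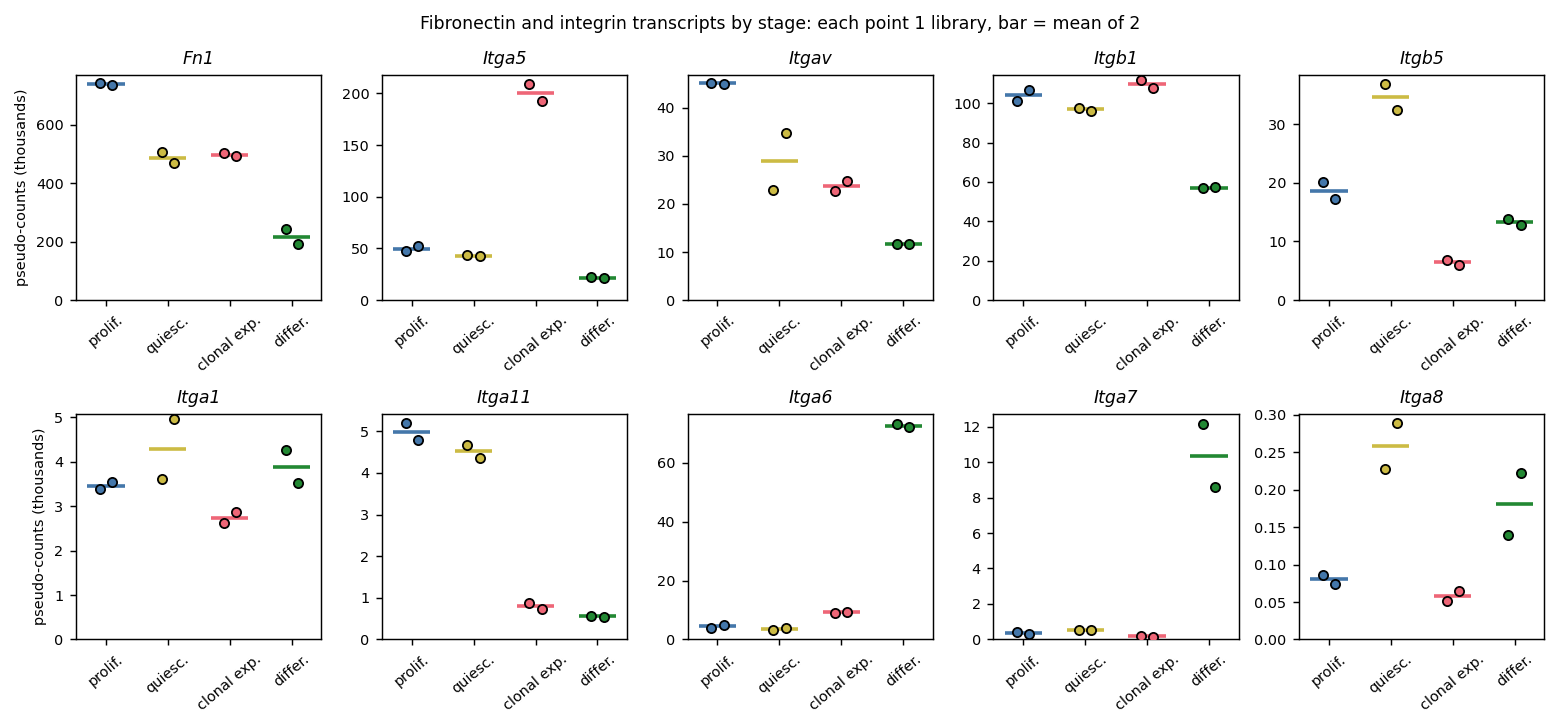
Pseudo-counts (linear axes from 0, a scale of its own for each gene) of fibronectin and the 9 integrin subunits at the 4 stages; each point is 1 library and each bar the mean of the 2. Itga5 stands highest at clonal expansion (208837 and 192576), Itga6 and Itga7 at differentiation (73099 and 71978 for Itga6), and Fn1 lowest at differentiation.

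Itga5, the alpha subunit of the main fibronectin receptor (gene ID 16402, chr15:103174718-103197179), peaked 10 hours after the cocktail. It had 47379.6 and 52329 pseudo-counts at proliferation, 43243 and 42677 in quiescence, 208837 and 192576 in clonal expansion, and 22164 and 20963 at differentiation. No stage overlapped another: clonal expansion stood 4.67-fold above quiescence, and differentiation was the lowest. The rise at clonal expansion was 2.22 ± 0.10 on the log2 scale against quiescence (limma adjusted p = 1.63e-07). At differentiation Itga5 fell to 21564 ± 849 (SD, n = 2), against 200706 ± 11498 at clonal expansion and 42959.7 ± 400.4 at quiescence, with log2 changes of -3.22 ± 0.10 and -0.99 ± 0.10 (adjusted p = 4.2e-09 and 1.31e-05). Fn1 did not pass the test at clonal expansion against quiescence: the transcripts of this receptor subunit and of its ligand had log2 changes of 2.22 and 0.03 there.

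Itgav, the alpha subunit of RGD receptors such as those for vitronectin (gene ID 16410, chr2:83564554-83647073), was highest at proliferation and lowest at differentiation. It had 45239 and 44943 pseudo-counts at proliferation, 22812 and 34860.1 in quiescence, 22743 and 24857 in clonal expansion, and 11677 and 11775 at differentiation. Its 2 libraries at quiescence were far apart, by 0.61 on the log2 scale, and the lower of them lay within the range of clonal expansion. Itgav fell at differentiation, with log2 changes of -1.02 ± 0.17 against clonal expansion (limma adjusted p = 2.86e-04) and -1.27 ± 0.17 against quiescence (7.6e-05). The fall at quiescence against proliferation, -0.68 ± 0.17 (0.0160), was lost without proliferation library 1 (0.0624) or library 2 (0.104). Clonal expansion against quiescence did not pass (-0.25, 95% interval -0.62 to 0.12), but passed without quiescence library 1 (-0.55, adjusted p = 9.26e-04) and with the same total per library (-0.48).

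Itgb1, the beta subunit that most of these alpha subunits pair with (gene ID 16412, chr8:131209554-131257479), was the steadiest of the 9 subunits after Itga1, with stage means within 1.93-fold of each other. It had 101248 and 106784 pseudo-counts at proliferation, 97525 and 96182 in quiescence, 111765 and 107693 in clonal expansion, and 56755 and 57271 at differentiation. Only the step to differentiation passed the test: -0.94 ± 0.099 against clonal expansion and -0.76 ± 0.099 against quiescence (limma adjusted p = 1.22e-05 and 7.16e-05). The other changes were -0.10 at quiescence against proliferation (95% interval -0.32 to 0.12) and 0.18 at clonal expansion against quiescence (-0.04 to 0.40), and the sign of the second turned under other scalings.

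Itgb5, which pairs with Itgav in a vitronectin receptor (gene ID 16419, chr16:33829751-33949424), moved the other way from Itga5 at the steps into and out of clonal expansion. It had 20049 and 17293 pseudo-counts at proliferation, 36887 and 32426 in quiescence, 6907 and 5949 in clonal expansion, and 13742 and 12751 at differentiation. The stages did not overlap, with quiescence highest and clonal expansion lowest. Itgb5 rose by 0.89 ± 0.12 at quiescence against proliferation (limma adjusted p = 7.13e-04). It fell to 6428 ± 677 at clonal expansion, against 34657 ± 3154 at quiescence (SD, n = 2), a log2 change of -2.43 ± 0.12 (adjusted p = 2.27e-07). At differentiation it was 2.06-fold above clonal expansion (1.05 ± 0.12, adjusted p = 2.32e-05) and still below quiescence (-1.39 ± 0.12, 3.71e-06).

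Itga8, whose product binds the RGD ligand nephronectin and fibronectin (gene ID 241226, chr2:12028287-12223547), was the least abundant of the 10. It had 86.2 and 74.4 pseudo-counts at proliferation, 227 and 289 in quiescence, 51.6 and 64.9 in clonal expansion, and 139 and 222 at differentiation. The stages did not overlap, although the 2 differentiation libraries were themselves 0.67 apart on the log2 scale; the row of E030013I19Rik overlaps Itga8 and reached 5.11 at most. Itga8 rose by 1.67 ± 0.28 at quiescence against proliferation, fell by 2.13 ± 0.28 at clonal expansion against quiescence and rose by 1.58 ± 0.28 at differentiation against clonal expansion (limma adjusted p = 0.00230, 7.55e-05 and 4.65e-04). With quantile normalization the last 2 changes were -1.45 and 0.76. Differentiation against quiescence did not pass (-0.54, 95% interval -1.16 to 0.07) and passed without differentiation library 2 (-0.88) or with the same total per library (-0.78).

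The collagen receptor subunits differed from each other. Itga11, which with Itgb1 binds fibrillar collagen on fibroblasts (gene ID 319480, chr9:62525662-62631786), had 5189 and 4786 pseudo-counts at proliferation, 4679.8 and 4363 in quiescence, 869 and 739.7 in clonal expansion, and 575 and 545 at differentiation. It was high in the first 4 libraries and low in the last 4, with no overlap between neighbouring stages. The fall at clonal expansion against quiescence was -2.49 ± 0.13 (limma adjusted p = 2.54e-07) and that at differentiation against quiescence -3.01 ± 0.13 (2.84e-08). The further fall at differentiation against clonal expansion, -0.52 ± 0.13 (0.00379), was lost without clonal expansion library 1 (0.0520). A row for Cdkn2d, whose interval in the file is far longer than a gene, spans Itga11; it was at 158 to 294 pseudo-counts.

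Itga1, which with Itgb1 binds collagen IV among other collagens (gene ID 109700, chr13:115748289-115892172), had 3376 and 3539 pseudo-counts at proliferation, 3601 and 4959.9 in quiescence, 2612 and 2860.3 in clonal expansion, and 4262 and 3511 at differentiation. Clonal expansion was the lowest stage, and the libraries of the other 3 interleaved in part. Itga1 fell by 0.63 ± 0.16 at clonal expansion against quiescence (limma adjusted p = 0.00525; 0.0510 with no filter on low values). It rose by 0.50 ± 0.16 at differentiation against clonal expansion (0.0159), a call lost without clonal expansion library 1 (0.0856) or differentiation library 1 (0.139). The changes of 0.29 at quiescence against proliferation and -0.13 at differentiation against quiescence did not pass, but did without quiescence library 1 (0.52 and -0.36). The first also passed with the trend on transcript length removed (0.35, adjusted p = 0.0450). The Pelo row lies inside Itga1 in the file, at 2501 to 5933 pseudo-counts, and in unstranded libraries reads of the shared interval cannot be told apart.

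Both laminin receptor subunits rose to their highest level at differentiation. Itga6 (gene ID 16403, chr2:71625140-71694815) had 4009 and 4825 pseudo-counts at proliferation, 3366 and 3859 in quiescence, 9005 and 9389.7 in clonal expansion, and 73099 and 71978 at differentiation. No stage overlapped another, and the 2 rises ran over both treated stages. At clonal expansion it was 2.55-fold above quiescence (1.35 ± 0.12 on the log2 scale, limma adjusted p = 4.68e-06). At differentiation it was 7.89-fold above clonal expansion (2.98 ± 0.12, 1.39e-08) and 20.1-fold above quiescence (4.33 ± 0.12, 2.65e-09). Quiescence against proliferation gave -0.29 and did not pass, but passed without proliferation library 1 (-0.42) or quiescence library 2 (-0.39). Among genes by pseudo-count, Itga6 ranked 236 and 242 at differentiation, against 3856 and 3679 at clonal expansion.

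Itga7, the main laminin receptor alpha subunit of muscle (gene ID 16404, chr10:128370869-128395332), had 410.0 and 300.2 pseudo-counts at proliferation, 560.4 and 511 in quiescence, 185 and 158 in clonal expansion, and 12119.7 and 8596 at differentiation. It was lowest 10 hours after the cocktail and highest 6 days after it, without overlap of any stages. It fell by 1.64 ± 0.21 at clonal expansion against quiescence (limma adjusted p = 6.26e-05; -1.01 with quantile normalization). At differentiation it reached 10358 ± 2491, against 172 ± 18.7 at clonal expansion and 536 ± 35.1 at quiescence (SD, n = 2), with log2 changes of 5.89 ± 0.21 and 4.25 ± 0.21 (adjusted p = 7.48e-09 and 7.07e-08). The change of 0.61 at quiescence against proliferation did not pass (0.0594) and passed without proliferation library 1 (0.83) and with the trend on transcript length removed (0.61, adjusted p = 0.0434).

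Markers of other cell types that use these subunits were read in the same libraries. Of 9 smooth and skeletal muscle markers 6 were tested, and at differentiation against clonal expansion 3 rose and 2 fell: Des, the intermediate filament desmin, had 5571 and 4992 at differentiation, against 230.1 and 136 at clonal expansion, and Myh11, smooth muscle myosin, had 5291 and 4747 at differentiation, against 71.5 and 63.3 at clonal expansion, while Acta2, smooth muscle actin, had 1639 and 2416 at differentiation, against 63633 and 70349 at clonal expansion. The 9 summed to 16438 to 16791 at differentiation, against 71421 to 77137 at clonal expansion, and Myod1 was below 1 at the 3 earlier stages. Of 6 epithelial markers 3 were tested. The 6 summed to 947 to 1891 at differentiation, against 213 to 332 in the earlier libraries. Most of the sum at differentiation was Krt18, a simple epithelial keratin. Krt18 had 1711 and 801 there, against 0.950 and 0.0221 at clonal expansion. Epcam was below 1 at every stage. Itgb4, the other beta partner of Itga6 and an epithelial marker, had 69.0 and 86.3 at differentiation, against 207 and 232 at clonal expansion. The part of such cells in the rise of Itga6 and Itga7 was not tested.

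Counted together, the 10 genes moved in different directions at every step. They were chosen with earlier results of these data known. The shares and medians over all genes are therefore given beside theirs for scale only, not as a test of the 10. At quiescence against proliferation, 2 rose (Itga8, Itgb5) and 2 fell (Fn1, Itgav), 4 of 10 where 23.7% of all tested genes passed, 11.9% upward and 11.8% downward; the median size of the log2 change was 0.447, against 0.259 over all genes. At clonal expansion against quiescence, 2 rose (Itga5, Itga6) and 5 fell (Itga1, Itga7, Itga8, Itga11, Itgb5), 7 of 10 where 68.8% of all genes passed, 34.4% upward and 34.4% downward; the median size was 1.495, against 0.694. At differentiation against clonal expansion, 5 rose (Itga1, Itga6, Itga7, Itga8, Itgb5) and 5 fell (Fn1, Itga5, Itga11, Itgav, Itgb1), where 73.0% of all genes passed, 36.8% upward and 36.2% downward; the median size was 1.12, against 0.797. At differentiation against quiescence, 2 rose (Itga6, Itga7) and 6 fell (Fn1, Itga5, Itga11, Itgav, Itgb1, Itgb5), 8 of 10 where 66.3% of all genes passed, 33.4% upward and 32.9% downward; the median size was 1.22, against 0.660. The count at clonal expansion is close to the background share, and consecutive comparisons share a stage, so a value low at clonal expansion enters both the fall before it and the rise after it. At quiescence against proliferation the falls of Fn1 and Itgav were both lost without proliferation library 1, and both without proliferation library 2. Without proliferation library 1, Itga6 passed as a fall (-0.42) and Itga7 as a rise (0.83) instead. With the trend on transcript length removed, the count in this comparison was 4 rises, Itga1 and Itga7 being added, and 2 falls. With each library scaled to the same total, the median log2 change of all genes was -0.24 at clonal expansion against quiescence and -0.23 at differentiation against quiescence, against -0.0061 and 0.0062 as deposited. There were then 3766 rises and 6302 falls over all genes in the first and 3795 and 6314 in the second, against 5038 and 5033, and 4892 and 4825, as deposited. The 10 genes then gave 2 rises and 6 falls, and 2 rises and 7 falls.

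**Figure D2:**
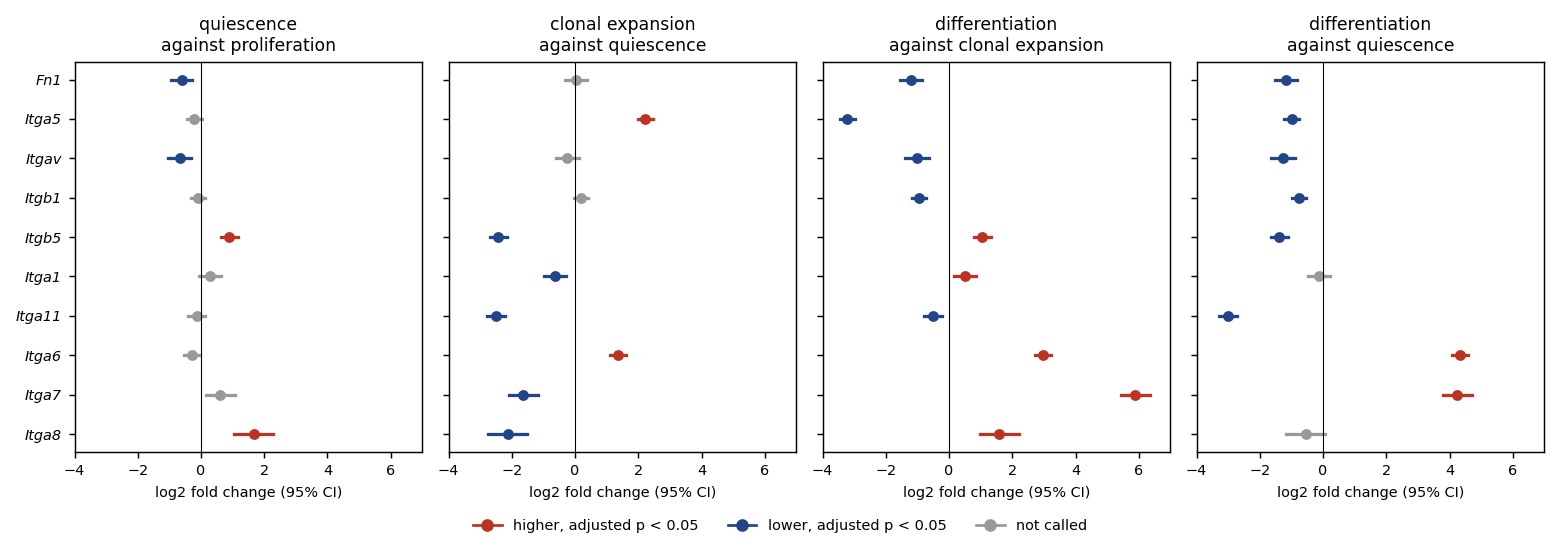
Log2 fold change (point) with its 95% confidence interval (line) of the 10 genes in the 4 comparisons, from limma over all 8 libraries; red marks genes that rose and blue genes that fell at an adjusted p under 0.05, and grey those that did not pass. The widest rise is that of Itga7 (5.89) and the widest fall that of Itga5 (-3.22), both at differentiation against clonal expansion.

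The make-up of the receptor pool was described per kilobase of transcript, which allows levels of different genes to be set side by side. It was given as each subunit's share of the summed value of 18 alpha or 8 beta subunits within a library. Such shares do not depend on a scaling factor per library. A share also moves when other subunits change, so it does not measure the gene's own change. At clonal expansion Itga6 rose against quiescence (log2 change 1.35), while its mean share was 4.09%, against 4.64% at quiescence. Itga5 made up 50.6% and 52.9% of the alpha sum at proliferation, 56.8% and 51.3% in quiescence, 87.7% and 86.2% in clonal expansion, and 17.8% and 17.7% at differentiation. Itga6 made up 4.38% and 5.00% at proliferation, 4.53% and 4.75% in quiescence, 3.88% and 4.30% in clonal expansion, and 60.0% and 62.1% at differentiation. The leading alpha subunit was thus the fibronectin receptor's in 6 libraries and the laminin receptor's Itga6 in the 2 differentiation libraries. Itgav held less of the alpha sum at both treated stages than before them, and the 2 treated stages overlapped. It held 30.2% and 28.4% at proliferation, 18.7% and 26.2% in quiescence, 5.98% and 6.96% in clonal expansion, and 5.86% and 6.21% at differentiation. Its own log2 change at clonal expansion against quiescence, -0.25, did not pass. Itga7 reached 10.7% and 7.95% at differentiation, against 0.0853% and 0.0779% at clonal expansion, and Itga11 held 5.46% and 4.66% at quiescence and under 1% afterwards. Itga1 and Itga8 stayed at or below 2.40% and 0.264% in every library.

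Itgb1 was the leading beta subunit in all 8 libraries, at 76.2% and 79.9% of the beta sum at proliferation, 65.6% and 67.1% in quiescence, 87.6% and 88.6% in clonal expansion, and 74.6% and 75.8% at differentiation. Itgb5 was next, with mean shares of 16.3% ± 1.78 at proliferation, 27.6% ± 1.81 in quiescence, 5.99% ± 0.427 in clonal expansion, and 20.3% ± 0.973 at differentiation (SD, n = 2), and Itgb3, which pairs with Itgav or Itga2b, held between 4.08% and 5.93%. The alpha sum was 53917 and 50608 pseudo-counts per kilobase at clonal expansion, against 17256 and 18851 at quiescence, while the beta sum was 33446 and 31869, against 38951 and 37576. At differentiation the sums were 28266 and 26884 for alpha and 19946 and 19805 for beta, so the alpha sum exceeded the beta sum at both treated stages and lay below it at proliferation and quiescence. Lengths were those of the longest GENCODE transcript (release M21). A gene's level depends on that choice, whereas the gene's own course over the stages does not. The shares, the sums and the order of the alpha and beta sums depend on it at every stage. Other lengths were not compared.

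**Figure D3:**
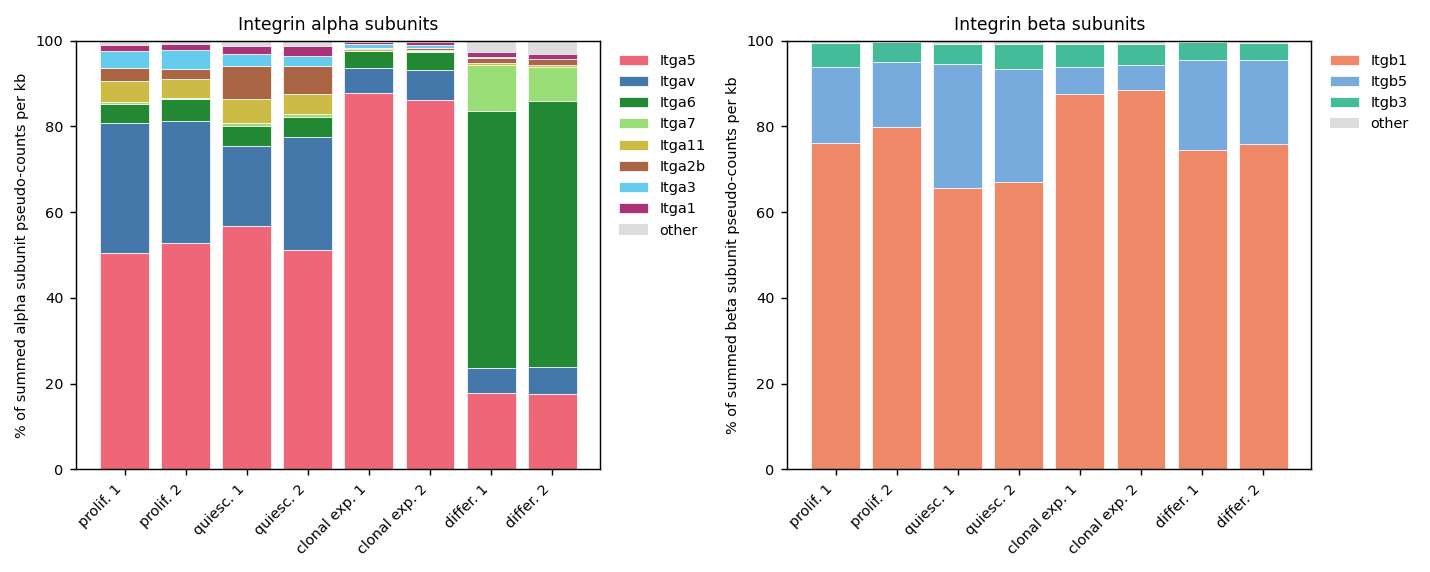
Share (%) of each integrin subunit in the summed pseudo-counts per kilobase of 18 alpha subunits (left) and 8 beta subunits (right), 1 stacked bar for each library, stages from proliferation to differentiation; grey holds the subunits not named. Itga5 fills most of the alpha bars at clonal expansion (87.7% and 86.2%) and Itga6 most of those at differentiation (60.0% and 62.1%), while Itgb1 leads every beta bar.

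Of the 17 other integrin subunits listed, 14 were tested. At quiescence against proliferation 3 rose and 3 fell, where 11.9% of all genes rose and 11.8% fell. At clonal expansion against quiescence 3 rose and 4 fell (34.4% and 34.4% of all genes). At differentiation against clonal expansion 6 rose and 6 fell (36.8% and 36.2%), and at differentiation against quiescence 4 and 8 (33.4% and 32.9%). The same shares over all genes apply to the lists below. The count of 3 rises at clonal expansion against quiescence was lower in every fit with a library left out. With the same total per library 1 rose there, and with the replicate block 2 rose. With quantile normalization 5 rose and 5 fell there, with a median of 0.14, against -0.26 as deposited. At quiescence, Itga2b, the alpha subunit of the platelet fibrinogen receptor, rose to 4695 and 4214, against 2224 and 1820.1 at proliferation, and it made up 7.92% and 6.50% of the alpha sum. It then fell to 638 and 632 at clonal expansion (log2 change -2.81 ± 0.13 against quiescence, limma adjusted p = 1.88e-07). Itga3, a further laminin receptor subunit, did not follow Itga6: it fell at differentiation to 224 and 205, against 2319.9 and 2169.5 at clonal expansion (-3.38 ± 0.13, adjusted p = 1.57e-08). Itgb3 fell to 4708 and 4693 at differentiation, against 10900.5 and 12894 at quiescence (-1.33).

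Subunits known from leukocytes were present at low levels and moved too. Itgae, which in lymphocytes pairs with Itgb7 and binds E-cadherin, had 1120.5 and 1074 at differentiation, against 36.6 and 42.0 at clonal expansion (log2 change 4.77 ± 0.22, limma adjusted p = 3.81e-08), while Itgb7 averaged 45.7 ± 2.44 at differentiation and 454 ± 2.23 at clonal expansion (-3.28 ± 0.21). Itgad and Itgal, partners of Itgb2, also rose, Itgad to 664 and 769.7 at differentiation, against a mean of 18.0 ± 4.27 at clonal expansion, and Itgal to 649 and 1067, against 41.8 and 48.8. Their partner Itgb2 was highest at quiescence (528 and 524); it had 115 and 186 at differentiation, against 33.6 and 18.0 at clonal expansion. Of the 10 leukocyte markers 5 were tested, and 4 are themselves integrins. The 10 summed to 1126 to 1633 at differentiation, against 598 to 690 at clonal expansion and 1108 to 1250 at quiescence. Most of the sum at differentiation was Itgal, itself one of the integrins described above. Cd3e was below 1 at every stage, and Ptprc, the common leukocyte antigen, was below 1 at both treated stages.

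Proteins that bind fibronectin or help build its fibrils mostly fell with Fn1 at differentiation: of 19 such genes, all tested, 4 rose and 15 fell against quiescence (median log2 change -1.71; the medians over all genes lay between -0.0070 and 0.0062 in the 4 comparisons; 33.4% of all genes rose and 32.9% fell). Fbln1, the matrix protein fibulin, had 1288 and 1475 at differentiation, against 18494 and 14076 at quiescence (-3.55), and Thbs1, thrombospondin, had 6699 and 11964 at differentiation, against 110212 and 140216 at quiescence (-3.79). Exceptions were Tgm2, the transglutaminase that cross-links and binds fibronectin, at 4714 and 4233 at differentiation, against 153 and 177 at quiescence (4.75), and the fibronectin-binding Igfbp5, at 671 and 948 at differentiation, against 47.8 and 99.4 at quiescence (3.51). At clonal expansion against quiescence 5 rose and 9 fell, where 34.4% of all genes rose and 34.4% fell. Sdc4, the heparan sulfate proteoglycan that works with Itga5 and Itgb1 as a fibronectin co-receptor, rose with Itga5, to 99439.6 and 92442 at clonal expansion, against 17762 and 16929.6 at quiescence (2.47). Plaur, the urokinase receptor, had 7273 and 6819.7 at clonal expansion, against 1229 and 1230.0 at quiescence (2.52), and Thbs1 fell to 16705 and 12703 at clonal expansion, against 110212 and 140216 at quiescence (-3.09). At differentiation against clonal expansion 3 rose and 15 fell (median -1.10), with Fbn1, fibrillin, falling to 24076 and 28756 at differentiation, against 264334 and 273835 at clonal expansion. At quiescence against proliferation 8 rose and 3 fell, against 4 and 1 without proliferation library 2, 6 and 1 without proliferation library 1 and 8 and 1 without quiescence library 1.

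Other ligands of RGD-binding integrins, not all of which carry the RGD peptide themselves, went mainly down by differentiation. Of 18 listed, 17 were tested, and against quiescence 3 rose and 12 fell (median -1.57). Over all genes 33.4% rose and 32.9% fell. The matricellular genes Nov, Ctgf and Cyr61 were among the falls, Nov with 33.8 and 45.5 at differentiation, against 1561 and 1203 at quiescence (-5.09) and Cyr61 with 1410.4 and 1610.2 at differentiation, against 20393 and 19781 at quiescence (-3.74). Npnt, which encodes nephronectin, the ligand of the Itga8 receptor, rose to 8128 and 6464 at differentiation, against 1312 and 1423 at quiescence (2.41). At clonal expansion against quiescence 4 rose and 7 fell (34.4% and 34.4% over all genes). At differentiation against clonal expansion 4 rose and 8 fell (36.8% and 36.2%). At quiescence against proliferation 6 rose and 3 fell (11.9% and 11.8%). Postn, periostin, had the largest rise of the last, with 890389.6 and 981138 at quiescence, against 140811 and 95666 at proliferation (3.01 ± 0.19, limma adjusted p = 1.52e-05). The rises at clonal expansion numbered 2 without quiescence library 1, quiescence library 2 or clonal expansion library 2, and with the same total per library. With the trend on transcript length removed, 5 fell at quiescence against proliferation.

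Of 10 collagen genes, 4 rose and 4 fell at clonal expansion against quiescence, where 34.4% of all genes rose and 34.4% fell. The collagens' median log2 change was 0.26. With quantile normalization 2 rose and 4 fell, with a median of -0.11. Col4a1, a chain of basement membrane collagen IV, had 1715616 and 1672252 at clonal expansion, against 299883 and 307167 at quiescence (2.48). The fibrillar Col1a2 had 1324828 and 1130844 at clonal expansion, against 2680942 and 2418788 at quiescence (-1.06). At differentiation against quiescence 4 rose and 5 fell, with Col4a1 still higher (1.31) and Col1a2 lower (-2.07), and at differentiation against clonal expansion 1 rose and 5 fell. At quiescence against proliferation 8 rose and the other two did not pass (median 0.67), but 4 rose with quantile normalization, 2 without proliferation library 2 and 5 without quiescence library 1. Itga11, the fibrillar collagen receptor subunit, and Col1a2 had log2 changes of -2.49 and -1.06 at clonal expansion against quiescence, and Itga1 and Col4a1 had -0.63 and 2.48. The call for Col1a2 was lost with no filter on low values.

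Of 13 laminin and nidogen genes listed, 12 were tested, and at differentiation against clonal expansion 6 rose and 5 fell (median 0.75, but 0.33 with quantile normalization). Over all genes 36.8% rose and 36.2% fell there, and 34.4% and 34.4% at clonal expansion against quiescence. The shares were 33.4% and 32.9% at differentiation against quiescence, and 11.9% and 11.8% at quiescence against proliferation. Lamb3, a beta chain known from epithelial laminin, rose to 5028 and 4029 at differentiation, against 31.0 and 40.3 at clonal expansion (6.95 ± 0.24, limma adjusted p = 7.48e-09). Lama2, the alpha chain known from muscle basement membrane, rose to 1583 and 2056 at differentiation, against 352 and 381 at clonal expansion (2.30), while Lama5 fell to 819 and 522 at differentiation, against 10339.8 and 9376 at clonal expansion (-3.91). These rises stood beside those of Itga6 and Itga7 and, for Lamb3, beside the epithelial marker sum given above, which was mostly Krt18. The part of epithelial cells was not tested. At clonal expansion against quiescence 4 rose and 5 fell, with Lama5 at 10339.8 and 9376 at clonal expansion, against 1329 and 1575 at quiescence. At differentiation against quiescence 5 rose and 5 fell (median 0.09, but -0.14 with the same total per library and -0.11 with quantile normalization), and 3 rose with either of these, without differentiation library 1 or without differentiation library 2. At quiescence against proliferation 7 rose and 2 fell (4 and 1 without proliferation library 2), the widest rise being Nid2, nidogen, at 52649 and 58641 at quiescence, against 15048 and 12296 at proliferation (2.03).

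Inside the cell, integrin regulators were mixed, and of 21 listed, 20 were tested. At quiescence against proliferation 5 fell and the others did not pass, where 11.9% of all genes rose and 11.8% fell. At clonal expansion against quiescence 5 rose and 9 fell (34.4% and 34.4% over all genes). At differentiation against clonal expansion 7 rose and 8 fell (36.8% and 36.2%), and at differentiation against quiescence 7 and 8 (33.4% and 32.9%). Kank1, a talin-binding protein at the rim of focal adhesions, had 12420.2 and 12064 at differentiation, against 524 and 490.0 at clonal expansion (4.59 ± 0.11, limma adjusted p = 9.54e-10). Cd151, the tetraspanin that associates with laminin-binding integrins, rose with Itga6, to 42942 and 40537 at differentiation, against 13708 and 12976 at clonal expansion (1.65), and Cav1, caveolin, rose to 370078 and 374279 at differentiation, against 71311 and 64607 at quiescence (2.46). Tln2, a talin, fell to 5529 and 6154 at differentiation, against 17587 and 18912 at quiescence (-1.64), and Dab2, an endocytic adaptor for integrins, to 2298 and 2794 at differentiation, against 21184 and 22606 at quiescence (-3.11). The falls at quiescence numbered 2 without proliferation library 1, 1 without library 2, and 3 without quiescence library 1 or either clonal expansion library, and 2 genes rose without quiescence library 2. At differentiation against quiescence 5 fell without quiescence library 1 or differentiation library 2, and with the same total per library 3 rose at clonal expansion (also 3 with quantile normalization) and 5 at differentiation against quiescence.

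Of 39 focal adhesion adaptors and kinases, all tested, 2 rose and 15 fell at quiescence against proliferation, 9 and 18 at clonal expansion against quiescence, 11 and 23 at differentiation against clonal expansion, and 5 and 22 at differentiation against quiescence, with medians of -0.22, -0.32, -0.49 and -0.70. Of all genes, 11.9% rose and 11.8% fell in the first of these comparisons, 34.4% and 34.4% in the second, 36.8% and 36.2% in the third, and 33.4% and 32.9% in the last. Actn1, which encodes the actin cross-linker alpha-actinin, moved in the same directions as Itga5, with 135879 and 130969.5 at clonal expansion, against 36411 and 36546 at quiescence (1.87), and with 12145 and 12165 at differentiation (-3.46 against clonal expansion). Ptk2b, a kinase related to focal adhesion kinase, ran the other way, with 1296 and 1099.7 at clonal expansion, against 5120.3 and 5764 at quiescence (-2.19) and 14908 and 15082 at differentiation (3.65 against clonal expansion). Tgfb1i1, a paxillin relative, fell to 2400.3 and 3143 at differentiation, against 18967 and 17115 at quiescence (-2.71). At quiescence against proliferation 1 rose and 6 fell without proliferation library 2, 4 rose and 11 fell without quiescence library 1, and 1 rose and 11 to 13 fell without proliferation library 1 or any library of the treated stages. There, 5 rose and 15 fell with the trend on transcript length removed. With the same total per library, and with quantile normalization, 1 rose and 15 fell. At differentiation against clonal expansion 7 rose without clonal expansion library 2. The falls at differentiation against quiescence numbered 30 with the same total per library.

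**Figure D4:**
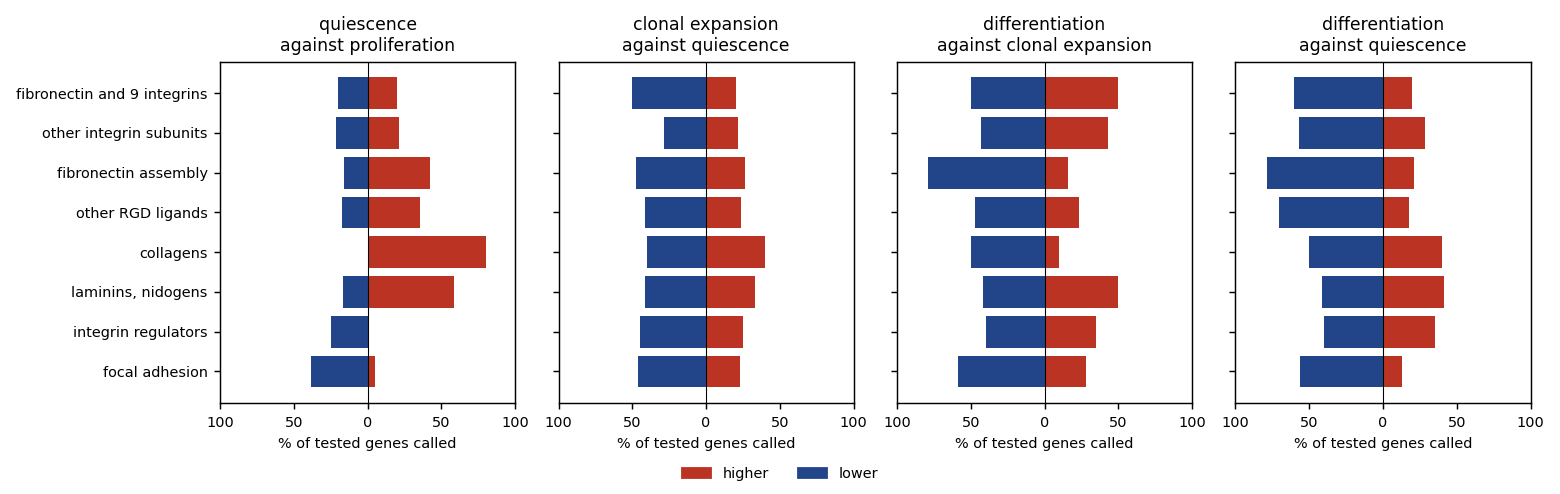
Share (%) of the tested genes of each list that rose (red, to the right of 0) or fell (blue, to the left) at an adjusted p under 0.05, in the 4 comparisons; lists run from fibronectin with its 9 integrins at the top to focal adhesion genes at the bottom. The longest blue bars are those of fibronectin assembly at differentiation, where 15 of 19 genes fell in either comparison. The bars labelled other RGD ligands hold ligands of RGD-binding integrins, not all of which carry the peptide.

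Genes with the most similar course were sought among 11631 genes with a mean of at least 200, as the root mean square difference of log2(pseudo-count + 1), each gene centred on its own mean, over the 8 libraries; Itga8 was below that mean and was not compared. Itga5 was closest to Ugdh (root mean square difference 0.0536), Samhd1 (0.130) and Grasp (0.142). Ugdh, which makes the sugar donor for hyaluronan and heparan sulfate, had 24402 and 27735 pseudo-counts at proliferation, 20765 and 20566 in quiescence, 107782 and 94241 in clonal expansion, and 11191 and 9996 at differentiation. Itga6 was closest to Gbe1 (root mean square difference 0.139), Ccrn4l (0.148) and Pank3 (0.186), where Gbe1 is the glycogen branching enzyme. For Itga7 they were Tgm2 (root mean square difference 0.237), Ankrd35 (0.243) and Aldh6a1 (0.264); Tgm2 is the fibronectin-binding transglutaminase described above. For Fn1 they were Fam149a (root mean square difference 0.117), Ift57 (0.120) and Fmnl3 (0.128).

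Itgb1, which varied least among the subunits compared here after Itga1, was closest to Tacc2 (root mean square difference 0.0289), Vps37c (0.0539) and Axin1 (0.0592), and Itga1 to Prkd3 (root mean square difference 0.0765), Mbd4 (0.0833) and Zfp964 (0.0944). The neighbours of Itgb5 were Tmem191c (root mean square difference 0.121), E330013P06 (0.149) and Grik5 (0.174), and those of Itga11 Gsdmd (root mean square difference 0.154), 4833427G06Rik (0.181) and Fbxl2 (0.201). A small difference is easier to reach for a gene that varies little, so these values are to be compared among the neighbours of 1 gene and not between genes; over the 8 libraries the likeness rests on 4 stages.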

How the data were processed

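RNA-seq libraries of 3T3-L1 cells, 2 at each of 4 stages, were unstranded and read as single reads of 100 nt, per the labels' protocols. The authors deposited a table of signal per gene: pseudo-counts, made in edgeR with relative log expression factors per the table's name. CASAVA 1.8.2, edgeR and mm9 stand in the submitters' processing notes; the aligner and gene models are not given in the sources used here. The values are not whole reads and whole reads could not be recovered, so depth is known only as the sums given, and models for read counts were not used. The 14647 genes averaging 10 or more were fitted as log2(value + 1) on stage with limma 3.58.1 in R 4.3.3, with a mean-variance trend and no replicate block; p-values were two-sided and adjusted over all of them by the Benjamini-Hochberg method, with a threshold of 0.05. The added 1 makes fold changes of low genes smaller. Tables were handled in Python 3.11.15 (pandas 2.3.3, numpy 2.4.6). The fit was also run on simulated data with independent noise, changes in few genes and no effect of transcript length. Such a run cannot show how the fit handles a length effect or changes in most genes. Per-kilobase values used the longest GENCODE M21 transcript matched by gene ID, for 95.1% of tested genes. Promoter sequences were those of RefSeq. The 10 genes and all lists were chosen with earlier results of these data known. All 10 are named; of each other list and comparison, up to 3 passing genes per direction with the largest change were eligible if their higher stage averaged 200 or more, and Itgb3 was added after its values were seen. Some genes that this rule names are left out of the text. The lists share genes, which are counted in each, so their counts are not independent. Among them are Fbn1 and Mfge8 (fibronectin assembly and other RGD ligands) and Tns1 (fibronectin assembly and focal adhesion). Col1a1 and Col1a2 are both collagens and preadipocyte markers. Same-numbered libraries of 2 stages had deviations correlated at 0.0126 to 0.354, over 0.1 in 2 of 6 pairs of stages. Those were quiescence with clonal expansion (0.354) and quiescence with differentiation (0.134). The main fit did not take numbers as pairing libraries, because the labels do not say that they do. Whether a number marks a shared batch was not tested. Alternatives were other pseudocounts (0.5, 10), filters (none, a mean of at least 100), scalings (the same total per library, quantile normalization), no trend, a length trend, the replicate block, only the 2 stages compared, and each library left out.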

Additional observations from a re-analysis of the deposited data

How the results depend on the processing

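Over 720 results for single genes of the 10 under the alternatives, 684 kept their direction and their side of the threshold, 13 passed only under an alternative, 15 passed only as reported and 8 turned their sign; none of these 8 passed the test as reported. The sign turned for Fn1 at clonal expansion against quiescence (-0.204 with the same total per library, -0.305 with quantile normalization, -0.0214 to 0.0844 with 1 library left out), for Itgb1 in the same comparison (-0.0552 and -0.0959 under these scalings), for Itgav there without quiescence library 2 (-0.552 to 0.0598 with 1 library left out), and for Itga1 at differentiation against quiescence without quiescence library 2 (0.103) or differentiation library 2 (0.0121; -0.359 to 0.103 with 1 library left out). At quiescence against proliferation 3472 genes and 4 of the 10 passed, but 1757 genes and 2 of the 10 with no filter on low values, and 1942 and 2 when only the 2 stages compared were fitted; with 1 library left out these were 1304 to 3536 genes and 2 to 5 of the 10. In the other comparisons leaving out 1 library gave 8715 to 9939, 9419 to 11146 and 8234 to 9637 genes, and 7 to 8, 8 to 10 and 8 to 9 of the 10. With the replicate block, as an alternative only, 4005, 10378, 10931 and 10068 genes and 5, 7, 10 and 8 of the 10 passed in the 4 comparisons as listed; among the 10 it changed 1 call, Itga7 at quiescence against proliferation, which then passed (0.61, adjusted p = 0.0136). With the trend on transcript length removed, 6 of the 10 passed at quiescence against proliferation, 4 upward and 2 downward. The cause of these changes was not tested. With 2 libraries a stage and pseudo-counts in place of reads, only 4 residual degrees of freedom were left to the fit, and counting error cannot be given.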
